A study of Mus musculus with 18 samples.

Results

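The basement membrane genes are described here in the descending aorta of HGPS and WT mice. They are 32 genes, chosen by symbol: the 6 collagen IV chains, 10 laminin chains, the 2 nidogens, 4 proteoglycans and multiplexins, and 10 other basement membrane proteins. Each symbol was matched to 1 Ensembl identifier among the 54281 rows of the count table. HGPS mice are C57BL/6 males with the genotype label LMNAG609G: the G609G change in Lmna makes cells splice the transcript into progerin, a truncated Lamin A, from the gene's own locus. The 6 HGPS mice were 64 to 75 d old. They were compared with 6 WT C57BL/6 males at 2 mo (62 d, and 95 d for 1 mouse) and 6 at 24 mo (609 to 762 d). The labels give no zygosity, and the paper's introduction describes the HGPS mouse as G609G on both alleles. Counts per gene do not separate the mutant from the normal allele, so they give no check of the genotype labels. Each library came from the RNA of 1 whole descending aorta with its intima, media and adventitia.

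Basement membranes are thin sheets of extracellular matrix that lie under the endothelium and around each smooth muscle cell of the artery wall. Laminin trimers of an alpha, a beta and a gamma chain form the first network at the cell surface, collagen IV trimers form a second, cross-linked network, and nidogens and perlecan bridge them. The sheet anchors cells through integrins and dystroglycan, and holds growth factors.

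Library depth was 17838351 to 30844775 counts in HGPS mice, against 12413229 to 21016752 in WT at 2 mo and 13622602 to 19871697 in WT at 24 mo. Levels are given as CPM, counts per 1000000 of the TMM-scaled library size. In bulk tissue, fewer cells of a type and less RNA per cell cannot be told apart. The 7 smooth muscle markers summed to 29473 to 38006 CPM in 2-mo WT, 19647 to 27404 in HGPS and 30468 to 34690 in 24-mo WT and none of them was at 0 in any group. In HGPS 5 of the 7 were lower than in 2-mo WT. Of all tested genes 21.2% were lower and 22% higher in that comparison. All 6 macrophage markers were higher in HGPS and summed to 527 to 789 CPM in HGPS, above 2-mo WT (294 to 441) and 24-mo WT (266 to 502). The sums of the 7 endothelial markers overlapped between all 3 groups, at 945 to 1278 CPM in HGPS, 595 to 1444 in 2-mo WT and 495 to 1458 in 24-mo WT. Of these 7 markers, 1 was higher and none lower in HGPS than in 2-mo WT. All 6 brown fat markers also rose in HGPS, with sums of 443 to 1618 CPM in HGPS, 107 to 570 in 2-mo WT and 112 to 356 in 24-mo WT, and the fit with scores of brown fat and skeletal muscle as covariates is given beside each member whose call it changes (below, the fit with tissue scores). Of the other lists, 4 of 6 fibroblast and 4 of 4 tested pericyte markers were lower in HGPS than in 2-mo WT. There 5 of 5 cell cycle genes and 4 of 5 white fat markers were higher. The tested markers of skeletal muscle (4), Schwann cells (3), mesothelium (3) and epithelium (2) gave 2 higher and 3 lower. At 24 mo against 2-mo WT, 2 of 4 tested pericyte and 3 of 3 tested Schwann cell markers were higher. So were 1 of 4 tested skeletal muscle and 1 of 5 white fat markers. Lower were 2 of 6 fibroblast and 1 of 2 tested epithelial markers, and in the remaining lists none passed. Over all tested genes 6.29% were higher and 5.38% lower. Pericyte sums were 2365 to 2905 CPM in 2-mo WT, 1342 to 1811 in HGPS and 4580 to 6144 in 24-mo WT. The part of these shifts in the results below was not tested. One library stood apart, that of 24-mo WT mouse 1. Over all tested genes its mean absolute deviation from the group median was 0.31 on the log2 scale, against 0.15 to 0.24 in the other 17 mice. It had the highest brown fat sum (356 CPM) and the lowest endothelial sum (495 CPM) of its group, and 8 members lay over 0.5 log2 units from the group median in it. Changes that rest on this mouse are given with and without it.

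Most of the basement membrane genes that changed in HGPS were lower. Of the 30 members that reached 10 counts in 6 mice, 19 were lower and 3 higher in HGPS against 2-mo WT at an adjusted p under 0.05, and 8 passed in neither direction. Over all 15210 tested genes 21.2% were lower and 22% higher. The median log2 fold change of the tested members was -0.36, and that of all tested genes was 0.00. With the study's own cut-offs, at least 1.5-fold with the adjusted p below 0.001, 5 members were lower (4.23% of all tested genes) and 1 was higher (5.27%). The 5 were Smoc2, Col4a6, Lamb2, Lama2 and Npnt, and the 1 was Lamb1. Without 2-mo WT mouse 2, 3 members passed these cut-offs in all. With brown fat and skeletal muscle scores as covariates 15 members were lower, none was higher and none passed the stricter cut-offs, while over all genes that fit called 3149 against 6567. Lama1 and Frem2, at 43 and 47 counts over all 18 mice, were too low to test. Length went with the direction: 24 of the 30 tested members were among the 25% of genes with the longest transcripts (from 4722 bases), and 31.5% of those genes were lower and 16.2% higher in HGPS. With the trend on transcript length removed, the members' median was -0.24.

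At 24 mo, 11 of the 30 tested members were lower than at 2 mo and 1 was higher, where 5.38% of all tested genes were lower and 6.29% higher. The median log2 fold change was -0.25, and 0.01 over all tested genes. By the stricter cut-offs Col4a3, Col4a5 and Npnt were lower (0.717% of all tested genes) and Frem1 was higher (1.28%). Without 24-mo WT mouse 1, 14 members were lower and the median was -0.36. Without 2-mo WT mouse 6 or 24-mo WT mouse 5 or 6, 2 members were higher, as Lamc3 then passed.

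Comparing HGPS with 24-mo WT is also the test of whether the changes in progeria and in aging differ, since both were measured against the same 2-mo WT mice. Here 6 members were higher (23.8% of all tested genes) and 10 lower (23.6%), and 14 passed in neither direction. The stricter cut-offs left 4 higher, Fras1, Lamb1, Nid2 and Col4a3 (6.02%), and 6 lower, Frem1, Lama3, Lamc3, Lamb2, Smoc2 and Lama2 (6.11%). Here the median was -0.09, and 0.03 with the length trend removed.

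**Figure D1:**
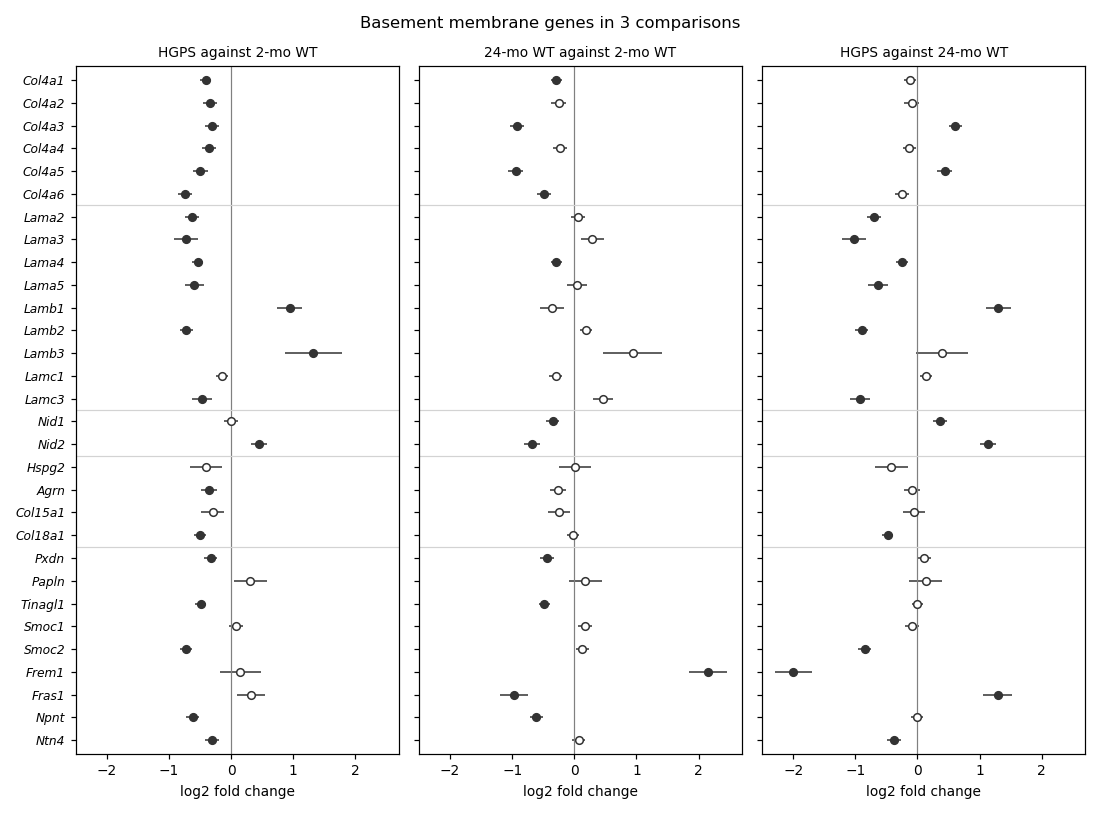
The log2 fold change of each of the 30 tested members (x axis, bars are the standard error, 6 mice per group) in 3 comparisons, with the classes collagen IV, laminin, nidogen, proteoglycan and multiplexin, and other from top to bottom. Filled points passed an adjusted p of 0.05: in HGPS against 2-mo WT, 19 filled points lie left of 0 and 3 right of it.

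All 6 collagen IV genes were lower in HGPS than in 2-mo WT (21.2% of all tested genes), and 4 of the 6 were lower at 24 mo (5.38%). These chains form 3 kinds of trimer: alpha1 and alpha2 chains make the trimer found in almost every basement membrane, alpha5 and alpha6 chains join in one known from smooth muscle, and alpha3, alpha4 and alpha5 chains join in that of the kidney filter. Their genes lie in 3 head-to-head pairs. In GENCODE on GRCm38, the minus-strand Col4a1 on chromosome 8 (11198423 to 11312826) and the plus-strand Col4a2 (11312805 to 11449287) overlap by 22 bases at their first exons. Col4a4 and Col4a3 start 71 bases apart on chromosome 1, and Col4a6 and Col4a5 start 1308 bases apart on chromosome X. The stretch that carries both start sites of the first pair is shown on the plus strand (RefSeq sequence, GRCm38.p6, chr8:11312801-11312830), with the bases transcribed in both genes in capitals.
Col4a1 and Col4a2: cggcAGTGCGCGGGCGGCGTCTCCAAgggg

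The capitals hold a GC box (GGGCGG, or CCGCCC on the other strand). Windows of 250 bases before to 50 after the RefSeq start were given for 22 of the 32 members, 28 windows in all. A GC box was in 17 of the 28 and in 35.7% of all 32851 windows. Most member windows were richer in G and C than the median of all windows (52.7%), with a range of 44% to 83.3%. The GC box count was not compared with windows of like G and C share. A CCAAT box (CCAAT or ATTGG) was in 10 of the 28 and in 37.4% of all windows, and no member window held TATAAA or TTTATA, which 13.6% of all windows did. Col4a1, Col4a2 and Col4a5 held both a GC box and a CCAAT box, and Col4a6 held only the GC box. The Col4a4 window held neither, and Col4a3 had no window. The motifs were counted apart from each other. The GC box of Col4a5, shown because this gene and Col4a6 change in ratio below, is in capitals within chrX:141475377-141475406 on the plus strand, of which 22 bases lie in an exon of the gene in GENCODE.
Col4a5: ccagcggggaggGGGCGGtgcagggaagag

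Col4a1 ranged from 1605 to 2109 CPM in 2-mo WT (median 1753), 1147 to 1635 in HGPS (median 1346) and 1296 to 1740 in 24-mo WT (median 1404). The HGPS mice lay below the 2-mo WT mice with a narrow overlap of the ranges. The log2 fold change was -0.41 ± 0.09 (SE) in HGPS (adjusted p = 0.00138) and -0.29 ± 0.09 at 24 mo (adjusted p = 0.0439). The 24-mo call was lost when any 1 of 13 mice was left out (HGPS mice 1, 2 and 5, 2-mo WT mice 2 to 6 and 24-mo WT mice 2 to 6), with adjusted p up to 0.109 and values from -0.31 to -0.24, and with no count filter (adjusted p = 0.0631).

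Col4a2 followed its partner. It was at 635 to 837 CPM in 2-mo WT (median 702), 468 to 667 in HGPS (median 575) and 499 to 857 in 24-mo WT (median 530), with the highest 24-mo value in mouse 1. Its fold change was -0.34 ± 0.12 in HGPS (adjusted p = 0.0315), and -0.25 ± 0.12 at 24 mo (adjusted p = 0.211). Without 24-mo WT mouse 1 the latter was -0.38 (adjusted p = 0.0158). The HGPS call was lost without any 1 of HGPS mice 3 and 4 and 2-mo WT mice 4, 5 and 6, at -0.33 to -0.29 (adjusted p up to 0.073).

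Col4a6 fell most of the family in HGPS. Its CPM values were 409 to 516 in 2-mo WT (median 460), 211 to 344 in HGPS (median 282) and 269 to 366 in 24-mo WT (median 334), so that all HGPS and all 24-mo mice lay below all 2-mo WT mice. The log2 fold change was -0.74 ± 0.11 in HGPS (adjusted p = 2.53e-05), which is 0.598 of the 2-mo WT level, and -0.49 ± 0.11 at 24 mo (adjusted p = 0.00416). HGPS and 24-mo WT differed by -0.25 ± 0.11 (adjusted p = 0.059), which passed without HGPS mouse 4 or 5 or 24-mo WT mouse 2, at -0.32 to -0.29, and also with DESeq2 (adjusted p = 0.0479) and with upper quartile normalization (adjusted p = 0.0475).

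Col4a5 and Col4a3 fell most in aging. The Col4a5 range was 729 to 1008 CPM in 2-mo WT (median 812), 424 to 714 in HGPS (median 630) and 390 to 500 in 24-mo WT (median 439). No HGPS or 24-mo mouse reached the lowest 2-mo WT mouse. At 24 mo the change was -0.94 ± 0.12 (adjusted p = 2.16e-05), about 0.522 of the young level, and in HGPS it was -0.50 ± 0.12 (adjusted p = 0.00212). HGPS lay above 24-mo WT by 0.44 ± 0.12 (adjusted p = 0.00437). In the fit with tissue scores neither HGPS value of Col4a5 passed, at -0.50 against 2-mo WT (adjusted p = 0.052) and 0.54 against 24-mo WT (adjusted p = 0.0678).

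Col4a3 and Col4a4 were near each other in level in young mice and apart in old ones. Col4a3 had 46.3 to 70.1 CPM in 2-mo WT (median 51.7), 34 to 48.6 in HGPS (median 45.8) and 22.4 to 33.7 in 24-mo WT (median 29.0). Col4a4 had 49.1 to 68.4 CPM in 2-mo WT (median 52.8), 39.0 to 46 in HGPS (median 44.6) and 37.6 to 58.6 in 24-mo WT (median 45.5). The 24-mo mice lay below every other mouse in Col4a3 and not in Col4a4. Col4a3 changed by -0.92 ± 0.11 at 24 mo (adjusted p = 1.89e-05) and by -0.31 ± 0.11 in HGPS (adjusted p = 0.0311), and HGPS exceeded 24-mo WT by 0.61 ± 0.11 (adjusted p = 0.000218). Col4a4 changed by -0.36 ± 0.11 in HGPS (adjusted p = 0.00988), and its 24-mo value was -0.23 ± 0.11 (adjusted p = 0.186). The ratio of Col4a3 to Col4a4 was 0.797 to 1.14 in 2-mo WT, 0.855 to 1.13 in HGPS and 0.509 to 0.673 in 24-mo WT. The HGPS call of Col4a3 was lost without any 1 of HGPS mice 1 and 3 and 2-mo WT mice 2 and 5, at -0.30 to -0.22 (adjusted p up to 0.086), and with no count filter (-0.30, adjusted p = 0.0511). In the fit with tissue scores neither HGPS value of Col4a3 passed, at -0.39 against 2-mo WT (adjusted p = 0.117) and 0.54 against 24-mo WT (adjusted p = 0.0629). The ratio of the pair was chosen after its values were seen and has no test.

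**Figure D2:**
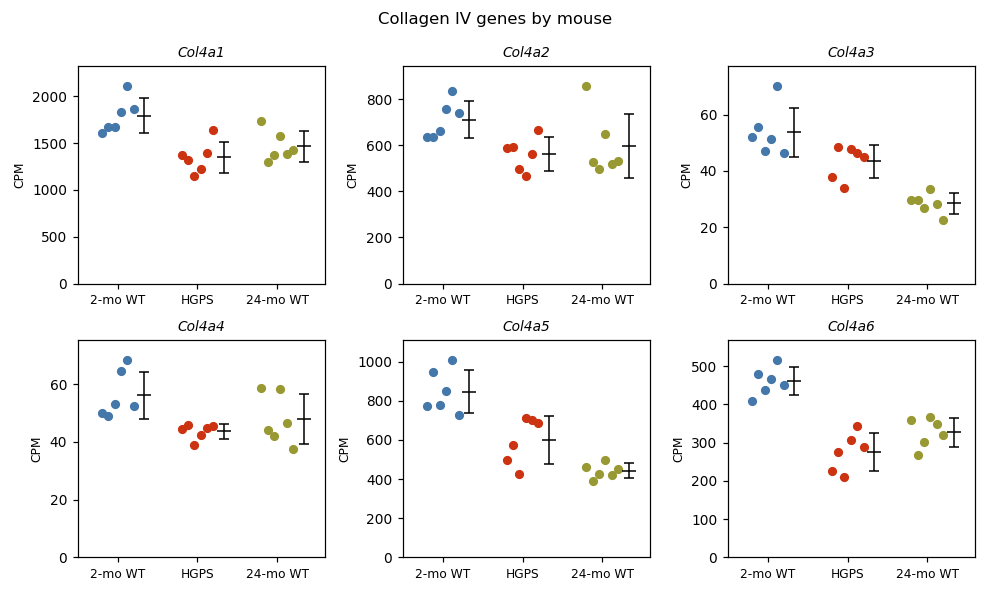
CPM (y axis, from 0) of the 6 collagen IV genes in each of 18 mice, by group on the x axis, with the mean and SD (n = 6) in black beside the points. The 24-mo WT mice lie at 390 to 500 CPM in Col4a5 and at 22.4 to 33.7 in Col4a3, below all other mice in Col4a3.

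The ratio of Col4a5 to Col4a6 moved in opposite directions in progeria and in aging. It was 1.61 to 1.98 in 2-mo WT, 2.01 to 2.38 in HGPS and 1.22 to 1.45 in 24-mo WT, and no 2 groups overlapped. The log2 ratio differed by 0.24 between HGPS and 2-mo WT, by -0.44 between 24-mo and 2-mo WT, and by 0.68 between HGPS and 24-mo WT. Each difference had the smallest p that 6 mice against 6 allow (two-sided exact permutation test, p = 0.00216, adjusted p = 0.00649 over 6 ratios in 3 comparisons). Leaving out each mouse in turn kept these differences at 0.21 to 0.27, -0.47 to -0.41 and 0.65 to 0.70. The ratio of Col4a1 to Col4a2 had medians of 2.52, 2.39 and 2.56 in 2-mo WT, HGPS and 24-mo WT, and its differences of -0.07, -0.02 and -0.05 on the log2 scale did not pass (adjusted p of 0.131 to 0.846, exact permutation tests). The first passed without HGPS mouse 4, at -0.10 (adjusted p = 0.0216, exact permutation test).

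Over the 18 mice, each taken as its deviation from its group mean, the head-to-head partners varied together. Pearson's r was 0.90 for Col4a1 and Col4a2 (Spearman's rho 0.85) and 0.88 for Col4a5 and Col4a6 (rho 0.87). Permutation within groups (two-sided, 100000 permutations) gave an adjusted p of 3e-05 for both r values, from a raw p of 2e-05. Without the 2 mice farthest from the median, r was 0.88 and 0.83. Col4a3 and Col4a4 had r = 0.67 and rho = 0.65 (adjusted permutation p of 0.002 and 0.004), and r = 0.55 without the 2 farthest mice. The adjusted permutation p of rho was 0.00016 for each of the former pairs. All values of 1 mouse come from 1 library, and the 12 pairs that are not head to head had r from 0.28 to 0.80, with a median of 0.52. Of these, Col4a4 with Col4a2 (0.80), Col4a4 with Col4a1 (0.72) and Col4a3 with Col4a5 (0.72) exceeded Col4a3 with Col4a4. The permutation tests compare r with 0 and not with these other pairs.

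Per kilobase of exon, Col4a1 made up 44.3% ± 1.39 (SD, n = 6) of the summed collagen IV level in 2-mo WT, Col4a5 23.3% ± 2.04, Col4a2 19.8% ± 0.975 and Col4a6 10.7% ± 0.391. Col4a3 and Col4a4 were 0.992% ± 0.0951 and 0.976% ± 0.0762. At 24 mo Col4a5 was 16.5% ± 1.22 and Col4a1 49.1% ± 0.816. In HGPS Col4a6 was 8.66% ± 1.12, with Col4a5 at 22.3% ± 3.08. By their means the order of the 4 leading chains was the same in HGPS as in 2-mo WT, while in 24-mo WT Col4a2 (22.3% ± 2.32) came before Col4a5.

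Of the 9 laminin genes tested, 6 were lower and 2 higher in HGPS than in 2-mo WT (21.2% and 22% of all tested genes), with a median of -0.54, so the count of higher chains was near the share over all genes. At 24 mo Lama4 alone was lower and none was higher (5.38% and 6.29% of all tested genes), with a median of 0.06. The beta chains parted: Lamb2 fell while Lamb1 rose. Lamb2 encodes the beta2 chain, which is typical of mature vessel and muscle basement membranes, and Lamb1 the widely expressed beta1 chain, which is prominent in embryonic ones. Their promoter windows also differ in letters: that of Lamb1 (chromosome 12, plus strand) was 63.7% G or C with 2 GC boxes and 1 CCAAT box, and that of Lamb2 (chromosome 9, plus strand) was 44% with neither. Over all windows the median was 52.7%. A 30-base stretch of each is shown, for Lamb1 the one with both GC boxes in capitals (chr12:31265201-31265230, which lies before the gene's first exon in GENCODE), for Lamb2 the last 30 bases before its RefSeq start (chr9:108479832-108479861, in which GENCODE places 5 exonic bases of a longer transcript). These letters are a description and show no bound factor.
Lamb1: gctgtcctCCGCCCcctCCGCCCccgctct
Lamb2: tccgtgttttacttccttcccttgctttcc

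Lamb1 was at 31.2 to 46.1 CPM in 2-mo WT (median 37.8), 48.3 to 129 in HGPS (median 62.3) and 24.4 to 36.9 in 24-mo WT (median 29.4). Every HGPS mouse lay above every WT mouse, and HGPS mouse 6 lay far above the others. The rise was 0.94 ± 0.20 on the log2 scale, or 1.92-fold (adjusted p = 0.00079), and it was 0.70 without HGPS mouse 6 (adjusted p = 0.000964). Against 24-mo WT the difference was 1.30 ± 0.20 (adjusted p = 2.89e-05). With the brown fat and skeletal muscle scores as covariates, the Lamb1 change in HGPS was 0.52 and did not pass (adjusted p = 0.23).

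Lamb2 was one of the most abundant members, at 1003 to 1512 CPM in 2-mo WT (median 1255), 694 to 842 in HGPS (median 733) and 1243 to 1733 in 24-mo WT (median 1322). All HGPS mice lay below all WT mice. The fall was -0.72 ± 0.10 against 2-mo WT (adjusted p = 2.53e-05) and -0.90 ± 0.10 against 24-mo WT (adjusted p = 1.25e-06), and aging gave 0.19 ± 0.10 (adjusted p = 0.275). It passed in each of the 26 alternative fits against 2-mo WT, with values from -0.78 to -0.66.

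The ratio of Lamb1 to Lamb2 was 0.0242 to 0.0357 in 2-mo WT, 0.0574 to 0.155 in HGPS and 0.0186 to 0.0246 in 24-mo WT. On the log2 scale HGPS exceeded 2-mo WT by 1.57 and 24-mo WT by 2.12 (exact permutation test, adjusted p = 0.00649 for both). At 24 mo it was lower by the exact permutation test, with a difference of -0.55 (adjusted p = 0.0111). Lamb1 stayed the lesser chain throughout: per kilobase it made up 1.85% ± 0.304 of the beta chain level in 2-mo WT, 5.49% ± 1.88 in HGPS and 1.26% ± 0.124 in 24-mo WT (SD, n = 6).

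Lamb3, a chain of epithelial laminin, had 4 to 10 counts per mouse in 2-mo WT, 9 to 31 in HGPS and 3 to 23 in 24-mo WT. As CPM these were 0.237 to 0.535 (median 0.323), 0.505 to 1.44 (median 0.817) and 0.162 to 1.42 (median 0.585). All 3 groups overlapped. Its 1.32 ± 0.46 in HGPS (adjusted p = 0.0246) rests on these counts and was lost without any 1 of HGPS mice 3 and 6 and 2-mo WT mouse 2, at 1.14 to 1.23 (adjusted p up to 0.0643), and in the fit with tissue scores (1.03, adjusted p = 0.344). The 24-mo value was 0.94 ± 0.47 (adjusted p = 0.223). The annotated span holds Hsd11b1 and G0s2 on the opposite strand.

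The alpha chains bind the cell receptors. Lama4, a chain of endothelial and muscle basement membranes, was the most abundant of them per kilobase, with 291 to 397 CPM in 2-mo WT (median 353), 212 to 270 in HGPS (median 243) and 263 to 328 in 24-mo WT (median 279). It changed by -0.54 ± 0.09 in HGPS (adjusted p = 9.37e-05), where no mouse overlapped 2-mo WT, and by -0.29 ± 0.09 at 24 mo (adjusted p = 0.0408). The 24-mo call was lost when any 1 of 9 mice was left out (2-mo WT mice 2 to 6 and 24-mo WT mice 1, 2, 3 and 5), at -0.30 to -0.24 (adjusted p up to 0.0908), and with no count filter (adjusted p = 0.056). HGPS and 24-mo WT differed by -0.25 ± 0.09 (adjusted p = 0.0237), which did not pass without any 1 of HGPS mice 1 to 3 and 24-mo WT mouse 6, at -0.23 to -0.22, with no count filter (-0.24, adjusted p = 0.0581) or in the fit with tissue scores (-0.01, adjusted p = 0.969).

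Lama2, the alpha2 chain of muscle, ranged from 180 to 257 CPM in 2-mo WT (median 238), 119 to 168 in HGPS (median 155) and 192 to 329 in 24-mo WT (median 225). Lama5 ranged from 162 to 239 CPM in 2-mo WT (median 190), 104 to 142 in HGPS (median 132) and 150 to 330 in 24-mo WT (median 172). In both genes the HGPS mice lay below all WT mice. Lama2 was at -0.63 ± 0.12 (adjusted p = 0.000439) and Lama5 at -0.59 ± 0.16 (adjusted p = 0.00512) against 2-mo WT. Against 24-mo WT, Lama2 was at -0.70 in HGPS (adjusted p = 0.000135), and at -0.53 in the fit with tissue scores, which did not pass (adjusted p = 0.0963). The 24-mo values of Lama2 and Lama5 were 0.06 ± 0.12 and 0.04 ± 0.16 (adjusted p of 0.802 and 0.916). The Lama5 value was -0.17 without 24-mo WT mouse 1, which held the 330 CPM. Lama3 was low, at 5.09 to 10 CPM in 2-mo WT (median 6.06), 3.28 to 4.82 in HGPS (median 3.96) and 5.35 to 11.8 in 24-mo WT (median 8.15), and fell by 0.73 ± 0.19 on the log2 scale in HGPS (adjusted p = 0.00465). In the fit with tissue scores Lama3 did not pass in HGPS against 2-mo WT (-0.70, adjusted p = 0.107) or against 24-mo WT (-0.90, adjusted p = 0.0832).

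The alpha chains fell together in HGPS, and their shares are given per kilobase. Lama4 made up 47.7% ± 1.52 (SD, n = 6) of the alpha chain level per kilobase in 2-mo WT and 48.9% ± 3.13 in HGPS, Lama5 27.9% ± 2.53 and 27.7% ± 3.52, and Lama2 23.4% ± 1.63 and 22.4% ± 1.46. At 24 mo the shares were 42.2% ± 4.43, 30.2% ± 6.64 and 26.1% ± 4.51. The highest Lama5 share at 24 mo, 43.3%, was in mouse 1, and shares without that mouse were not calculated. The log2 ratio of Lama4 to Lama5 differed by 0.05 between HGPS and 2-mo WT, and by -0.28 between 24-mo and 2-mo WT (exact permutation test, adjusted p of 0.786 and 0.162). The latter was -0.11 without 24-mo WT mouse 1. Shares depend on the length used: with the longest transcript in place of all exons, Lama4 was 58.1%, Lama2 24.2% and Lama5 17.1% in 2-mo WT. By that length the mean share of Lama2 was above that of Lama5 in all 3 groups, the reverse of the order by all exons.

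Of the gamma chains, Lamc3 changed in HGPS. Lamc1, the common gamma1 chain, passed in no comparison with edgeR, with values of -0.15 ± 0.10, -0.30 ± 0.10 and 0.14 ± 0.10 for HGPS against 2-mo WT, 24-mo against 2-mo WT and HGPS against 24-mo WT. Its CPM ran from 227 to 379 over all mice, and its 24-mo value passed without 2-mo WT mouse 1 or 24-mo WT mouse 1, at -0.38 to -0.34, and with DESeq2, at -0.30 (adjusted p = 0.0338). Lamc3 had 54.4 to 92.1 CPM in 2-mo WT (median 67.1), 44.7 to 56.1 in HGPS (median 49.7) and 63.7 to 144 in 24-mo WT (median 97.0). It was -0.47 ± 0.16 in HGPS (adjusted p = 0.0231), 0.46 ± 0.16 at 24 mo (adjusted p = 0.0631) and -0.93 ± 0.16 in HGPS against 24-mo WT (adjusted p = 9.63e-05), where the groups did not overlap. The first was -0.37 without 2-mo WT mouse 6 (adjusted p = 0.0675) and -0.60 in the fit with tissue scores (adjusted p = 0.0971). The second passed without 2-mo WT mouse 6 or 24-mo WT mouse 5 or 6, at 0.54 to 0.57, and with DESeq2 (0.47, adjusted p = 0.0306). Lamc3 took 21.9% ± 1.92 of the gamma chain level in 2-mo WT, 18.6% ± 1.77 in HGPS and 31.9% ± 3.58 in 24-mo WT.

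**Figure D3:**
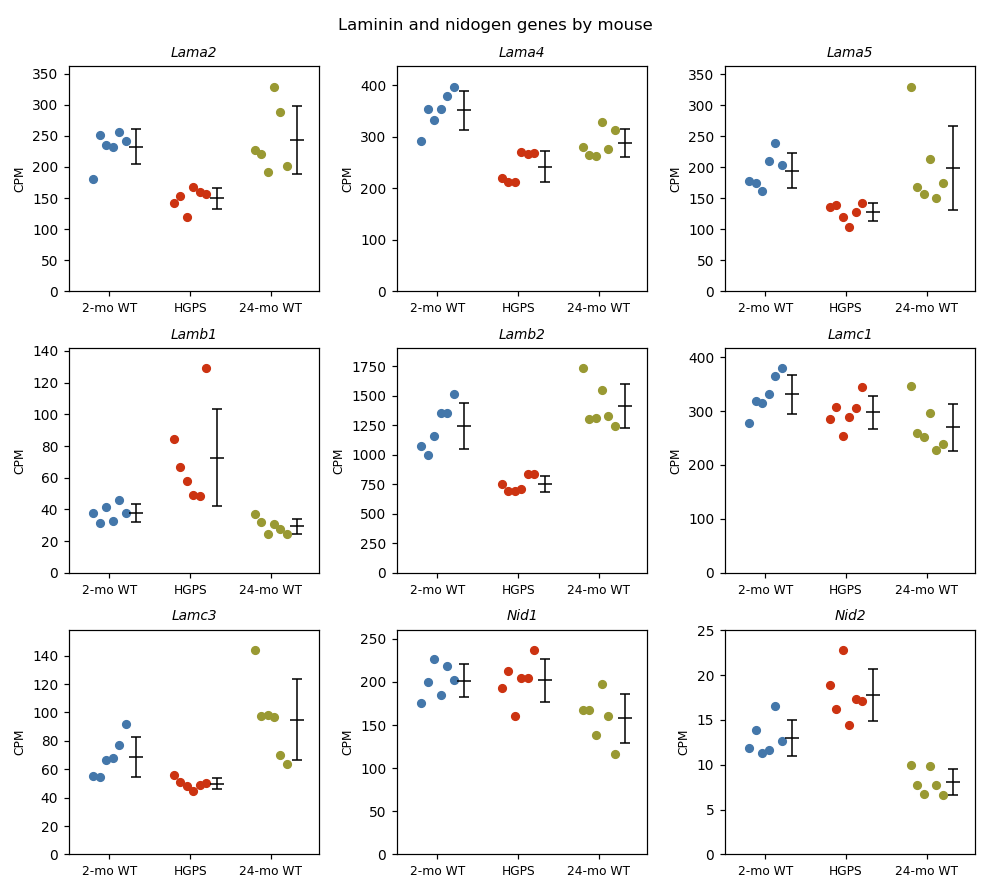
CPM (y axis, from 0) of 7 laminin and 2 nidogen genes in each of 18 mice, by group on the x axis, with the mean and SD (n = 6) in black beside the points. Lamb1 is highest in the HGPS mice (48.3 to 129 CPM) while Lamb2 is lowest there (694 to 842 CPM).

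The nidogens link laminin to collagen IV. Nid1 was at 176 to 227 CPM in 2-mo WT (median 201), 160 to 237 in HGPS (median 204) and 116 to 198 in 24-mo WT (median 163). Nid2 was at 11.3 to 16.6 CPM in 2-mo WT (median 12.2), 14.4 to 22.8 in HGPS (median 17.2) and 6.66 to 9.96 in 24-mo WT (median 7.75). Both were lower at 24 mo and only Nid2 rose in HGPS. Nid1 changed by -0.35 ± 0.11 at 24 mo (adjusted p = 0.0417), a call lost in 9 of 18 fits that left out 1 mouse (HGPS mouse 1, 2-mo WT mice 2, 3, 5 and 6, 24-mo WT mice 2, 3, 5 and 6, with values from -0.37 to -0.28), and by 0.00 ± 0.11 in HGPS (adjusted p = 0.98). The 24-mo call of Nid1 was also lost with only the 2 groups in the fit (adjusted p = 0.0535) and in the fit with tissue scores (-0.33, adjusted p = 0.283). HGPS exceeded 24-mo WT in Nid1 by 0.36 (adjusted p = 0.0116), and by 0.30 with tissue scores (adjusted p = 0.301). Nid2 changed by -0.68 ± 0.13 at 24 mo (adjusted p = 0.00168) and by 0.45 ± 0.13 in HGPS (adjusted p = 0.00751), and HGPS exceeded 24-mo WT by 1.13 ± 0.13 (adjusted p = 1.33e-06) with no overlap. Nid2 shares 437 bases of its annotated span with Rtraf on the opposite strand. With the brown fat and skeletal muscle scores in the fit, the Nid2 value in HGPS was 0.10 (adjusted p = 0.71) and its 24-mo value -0.88 (adjusted p = 0.00215).

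The ratio of Nid1 to Nid2 differed in both comparisons with 2-mo WT, in opposite directions. It was 13.2 to 20.1 in 2-mo WT, 7.01 to 14.2 in HGPS and 16.7 to 21.6 in 24-mo WT. On the log2 scale the ratio was -0.45 in HGPS against 2-mo WT and 0.31 at 24 mo against 2-mo WT (exact permutation tests, adjusted p of 0.0244 and 0.026). The former call ended without any 1 of 2-mo WT mice 3, 4 and 6, with values from -0.44 to -0.38. The latter ended without any 1 of 2-mo WT mice 2, 4, 5 and 6 and 24-mo WT mice 2 to 5, with values from 0.26 to 0.32. HGPS and 24-mo WT differed by -0.76 (exact permutation test, adjusted p = 0.00649).

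**Figure D4:**
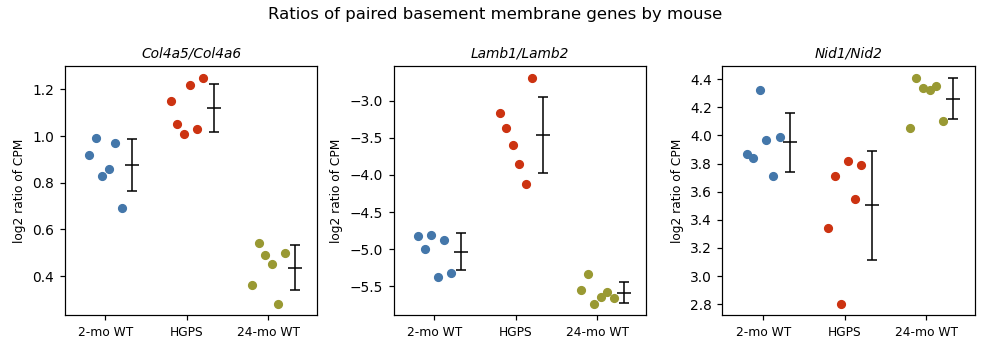
The log2 ratio of CPM (y axis) of Col4a5 to Col4a6, Lamb1 to Lamb2 and Nid1 to Nid2 in each of 18 mice, by group on the x axis, with the mean and SD (n = 6) in black beside the points. In the first 2 ratios every HGPS mouse lies above every WT mouse, and in the third 24-mo WT lies above HGPS.

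Of the proteoglycans and multiplexins, 2 of 4 were lower in HGPS than in 2-mo WT (21.2% of all tested genes) and none at 24 mo (5.38%). Col18a1, whose collagen XVIII is the source of endostatin, was the most abundant member per kilobase in 2-mo WT. It had 1737 to 2434 CPM in 2-mo WT (median 2163), 1310 to 1639 in HGPS (median 1552) and 1901 to 2633 in 24-mo WT (median 2034). All HGPS mice lay below all WT mice, with -0.50 ± 0.10 against 2-mo WT (adjusted p = 0.00036) and -0.48 ± 0.09 against 24-mo WT (adjusted p = 0.000414), the latter -0.36 in the fit with tissue scores (adjusted p = 0.111). Its annotated span overlaps Slc19a1 on the opposite strand.

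Agrn, the agrin gene, had 86.4 to 115 CPM in 2-mo WT (median 98.1), 67.4 to 86.7 in HGPS (median 78.2) and 64.9 to 128 in 24-mo WT (median 73.1). Its -0.35 ± 0.13 in HGPS (adjusted p = 0.0367) did not pass when any 1 of 7 mice was left out (HGPS mice 1, 3 and 4 and 2-mo WT mice 3 to 6), at -0.36 to -0.31 with adjusted p up to 0.0791. At 24 mo it was -0.26 ± 0.13 (adjusted p = 0.23), and -0.42 without 24-mo WT mouse 1 (adjusted p = 0.00443).

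Hspg2, which encodes perlecan, passed in no comparison, and 1 mouse set its spread. It ranged from 731 to 1385 CPM in 2-mo WT and from 539 to 927 in HGPS. In 24-mo WT mouse 1 it was at 2245 CPM, and in the other 24-mo mice at 606 to 1098. Its values were -0.40 ± 0.26 in HGPS (adjusted p = 0.221) and 0.01 ± 0.26 at 24 mo (adjusted p = 0.983). Without that mouse they were -0.41 (adjusted p = 0.047) and -0.38 (adjusted p = 0.165). The HGPS value also passed with only the 2 groups in the fit (-0.41, adjusted p = 0.0396) and with tissue scores (-1.06, adjusted p = 0.0371). Col15a1 also passed nowhere, at 188 to 461 CPM over all mice, with the 461 in the same mouse, and without it the 24-mo value was -0.44 (adjusted p = 0.0497). For the log2 ratio of Col15a1 to Col18a1, HGPS exceeded 24-mo WT by 0.44 (exact permutation test, adjusted p = 0.0273), a call that ended when any 1 of 8 mice was left out (HGPS mice 2, 3 and 5 and 24-mo WT mice 2 to 6), with values from 0.37 to 0.46. At 24 mo against 2-mo WT that ratio passed only without 24-mo WT mouse 1, at -0.36 (adjusted p = 0.0248, exact permutation test).

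Of the 10 other members 9 were tested, and 5 were lower in HGPS than in 2-mo WT (21.2% of all tested genes). Npnt encodes nephronectin, a ligand of the integrin with the alpha8 chain. It had 823 to 1080 CPM in 2-mo WT (median 918), 486 to 701 in HGPS (median 607) and 534 to 767 in 24-mo WT (median 576). All HGPS and 24-mo WT mice lay below all 2-mo WT mice, by -0.62 ± 0.10 in HGPS (adjusted p = 8.67e-05) and -0.61 ± 0.10 at 24 mo (adjusted p = 0.000396). Between them the difference was -0.01 ± 0.10, with a 95% interval from -0.21 to 0.19.

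Tinagl1, a gene for a secreted tubulointerstitial nephritis antigen-like protein, was also lower in both. It had 161 to 228 CPM in 2-mo WT (median 189), 118 to 157 in HGPS (median 133) and 122 to 150 in 24-mo WT (median 137). Its change was -0.49 ± 0.09 in HGPS (adjusted p = 0.000249) and -0.48 ± 0.09 at 24 mo (adjusted p = 0.00111), without overlap with 2-mo WT in either. The interval of the difference between HGPS and 24-mo WT was -0.18 to 0.17.

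Pxdn, the peroxidasin that forms sulfilimine cross-links between collagen IV trimers, had 145 to 176 CPM in 2-mo WT (median 161), 116 to 148 in HGPS (median 126) and 87.5 to 143 in 24-mo WT (median 127). It was lower in both, at -0.33 ± 0.11 (adjusted p = 0.0177) and -0.44 ± 0.11 (adjusted p = 0.0112). The HGPS and 2-mo WT mice overlapped, and the 24-mo mice lay below the latter.

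Smoc2 fell in HGPS, and its relative Smoc1 did not pass. Both encode calcium-binding SPARC-related proteins. Smoc2 had 267 to 328 CPM in 2-mo WT (median 316), 146 to 222 in HGPS (median 188) and 273 to 388 in 24-mo WT (median 345). All HGPS mice lay below all WT mice, with -0.73 ± 0.10 against 2-mo WT (adjusted p = 1.38e-05) and -0.85 ± 0.10 against 24-mo WT (adjusted p = 1.42e-06). Smoc1 passed in no comparison, at 211 to 389 CPM over all mice and 0.08 ± 0.11 in HGPS. Ntn4, netrin 4, a laminin-binding inhibitor of network assembly, had 72.5 to 117 CPM in 2-mo WT (median 84.1), 60.1 to 80.7 in HGPS (median 71.3) and 76.2 to 110 in 24-mo WT (median 91.4). It was -0.31 ± 0.11 in HGPS (adjusted p = 0.0276), and -0.06 with the brown fat and skeletal muscle scores in the fit (adjusted p = 0.829). The call was also lost without any 1 of HGPS mice 2 and 3 and 2-mo WT mice 3 and 6, at -0.30 to -0.22. Against 24-mo WT Ntn4 was at -0.38 in HGPS (adjusted p = 0.00796), and at -0.10 with these scores (adjusted p = 0.734).

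The Fraser complex genes, which join epithelium to dermis in the embryo, were low and split in aging. Frem1 had 3 to 9 counts per mouse in 2-mo WT, 4 to 15 in HGPS and 20 to 43 in 24-mo WT. As CPM these were 0.210 to 0.649 (median 0.345), 0.201 to 0.630 (median 0.376) and 1.08 to 2.34 (median 1.72), and all 24-mo mice lay above all others. The rise was 2.15 ± 0.31, or 4.44-fold (adjusted p = 9.52e-05), the largest among the tested members, and it passed in each of 26 alternative fits. Fras1 had 3.44 to 6.22 CPM in 2-mo WT (median 4.40), 3.51 to 7.25 in HGPS (median 5.74) and 1.57 to 3.76 in 24-mo WT (median 1.90), with 1 of the 24-mo mice inside the young range. It changed by -0.97 ± 0.23 at 24 mo (adjusted p = 0.00981) and HGPS exceeded 24-mo WT by 1.29 ± 0.23 (adjusted p = 0.000157). Papln, at 0.611 to 1.64 CPM, passed in no comparison.

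**Figure D5:**
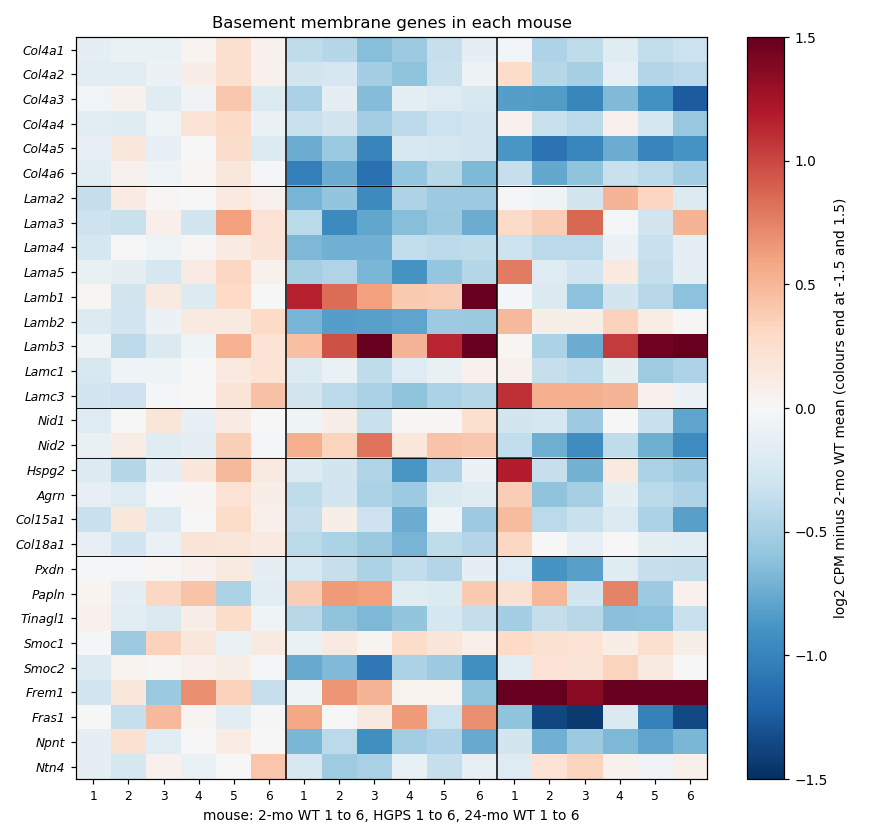
Each cell is the log2 CPM of a tested member (rows, 30 genes in the same class order as in the fold change plot) in a mouse (columns, 6 per group) minus the mean of the 2-mo WT mice, in blue below and red above 0. Lamb1 and Nid2 stand out in red in HGPS, Frem1 in red in 24-mo WT, and 24-mo WT mouse 1 is above its group in Hspg2, Lama5, Col15a1, Agrn and Col4a2.

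The members spanned a wide range of levels. Per kilobase of exon, the medians in 2-mo WT were 308 CPM for Col18a1, 235 for Col4a1, 206 for Lamb2, 183 for Npnt and 121 for Col4a5. The nidogens were at 28.9 (Nid1) and 2.37 (Nid2), and Frem1, Frem2 and Lama1 were the lowest, at 0.0247, 0.00173 and 0.

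The genes around the basement membrane were split in direction. Of 50 genes for receptors, for chain folding and cross-linking, for proteases and their inhibitors, and for associated proteins, 47 were tested. Their values are from the edgeR fit of all 18 mice without covariates. Alternative fits of single genes are given for the members only. In HGPS against 2-mo WT 14 were higher and 11 lower (22% and 21.2% of all tested genes), with a median of 0.07. At 24 mo 3 were higher and 14 lower (6.29% and 5.38% of all tested genes), with a median of -0.10. Against 24-mo WT 19 were higher and 12 lower in HGPS (23.8% and 23.6% of all tested genes), the lower ones near the share over all genes. Among the 15 folding and cross-linking genes 7 were higher and 1 lower in HGPS, and 9 were lower and none higher at 24 mo. HGPS exceeded 24-mo WT in 10 of those 15. Sparc, a collagen-binding chaperone of secretion, changed by 0.72 ± 0.10 in HGPS (adjusted p = 1.93e-05) and by -1.43 ± 0.10 at 24 mo (adjusted p = 2.13e-08). Serpinh1, the collagen chaperone Hsp47, changed by -0.70 ± 0.09 at 24 mo (adjusted p = 3.73e-05).

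Among 13 receptors, 3 were higher and 5 lower in HGPS, where 22% and 21.2% of all tested genes were, and 1 was lower at 24 mo, against 5.38%. Itga8, the alpha8 integrin chain that binds the Npnt product, had a mean of 3553 CPM in HGPS, 6761 in 2-mo WT and 5635 in 24-mo WT, and changed by -0.93 ± 0.09 in HGPS (adjusted p = 3.53e-07). Of the 10 proteases and inhibitors, 4 were higher and 1 lower in HGPS. The metalloprotease inhibitors Timp1 and Timp4 rose in HGPS by 1.68 ± 0.17 (adjusted p = 5.4e-07) and 0.90 ± 0.15 (adjusted p = 8.25e-05). Timp4 was also higher at 24 mo, by 0.73 ± 0.15 (adjusted p = 0.00252), where Timp1 was at 0.02 ± 0.17 (adjusted p = 0.968). For Timp4, HGPS and 24-mo WT differed by 0.17 ± 0.14 (adjusted p = 0.331). Mmp2, a gelatinase that cleaves collagen IV, rose by 0.79 ± 0.11 in HGPS (adjusted p = 1.38e-05) and fell by 0.60 ± 0.11 at 24 mo (adjusted p = 0.000749). At 24 mo the stromelysin Mmp3 rose by 0.95 ± 0.14 (adjusted p = 0.000169). Of the 9 associated proteins tested, 4 were lower and none higher in HGPS, with the fibulin Fbln1 at -0.76 ± 0.12 (adjusted p = 5.21e-05). At 24 mo Vwa1, a matrilin-related protein bound to perlecan, rose by 1.00 ± 0.13 (adjusted p = 2.31e-05), and Fbln1 fell by 0.89 ± 0.12 (adjusted p = 3.8e-05). Against 24-mo WT, HGPS was 2.15 ± 0.10 higher in Sparc (adjusted p = 3.1e-11), 1.67 ± 0.17 higher in Timp1 (adjusted p = 2.62e-07) and 1.39 ± 0.11 higher in Mmp2 (adjusted p = 1.19e-08). Vwa1 was at -1.40 ± 0.13 (adjusted p = 7.37e-08). Egflam, which encodes the dystroglycan-binding protein pikachurin, was at -1.16 ± 0.19 (adjusted p = 5.49e-05) in the same comparison.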

How the data were processed

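RNA of 18 descending aortas (6 HGPS, 6 WT at 2 mo, 6 WT at 24 mo) was analysed, with groups and replicate numbers from the sample labels. The authors assigned paired-end stranded reads to GENCODE M23 transcripts (GRCm38.p6) with salmon, summed them per gene with tximport and deposited the estimated counts as whole numbers. Whether these were rounded is not stated, and their notes also list Bowtie 0.12.2. Symbols, positions and lengths are from GENCODE M21, on the same assembly, and promoter sequence is from RefSeq.

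A gene entered the test if 6 or more mice had 10 or more counts (edgeR 4.0.16, R 4.3.3: TMM, 1 quasi-likelihood fit of all 3 groups, Benjamini-Hochberg over all 15210 genes). SE is the log2 fold change over the square root of F. Ratios of log2 CPM (prior count 2) had two-sided exact permutation tests. DESeq2 1.42.0 was an alternative. The fits were tested on simulated data.

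The members and lists were chosen with earlier results of these data known. Tested members past an adjusted p of 0.05 in any comparison have their range and median given. Of the pathway genes, at most the 5 largest past the stricter cut-offs per comparison were named. For some of the genes named for 1 comparison, values in others are given too. Depth limits the precision of the genes with few counts, and p-values cover the spread between mice. No 2 mice of a group agreed within sampling noise (chi-square per degree of freedom of 7.77 to 93.8 over 45 pairs).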

Additional observations from a re-analysis of the deposited data

Results flagged for a closer look

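In 108 groups of 6 mice (30 tested genes and 6 ratios in 3 groups), 3 held a mouse far from the other 5 by Dixon's test, where chance alone gives about 1 in 20. In 2-mo WT, mouse 1 was lowest in Lama2, with a gap of 0.708 of the group's range on the log2 scale (180 CPM against 232 to 257 in the others). In 24-mo WT, mouse 1 was highest in Col18a1, with a gap of 0.635 of the range (2633 CPM against 1901 to 2141). The same mouse was lowest in the ratio of Lama4 to Lama5, with a gap of 0.764 of the range, at a ratio of 0.848.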

How the results depend on the processing

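Over the 90 changes of single members, 26 alternatives gave 2340 values, of which 2208 kept direction and call, 83 lost the call, 19 gained one and 30 turned in sign, none of these where the call had been made. With brown fat and skeletal muscle scores as covariates, the members higher in HGPS fell from 3 to 0 and those past the stricter cut-offs from 6 to 0, the median log2 change being -0.50. At 24 mo that fit gave 0 past the stricter cut-offs and a median of -0.41, and for HGPS against 24-mo WT 3 higher, 5 lower and 0 past the stricter cut-offs. It called 3149, 779 and 2710 of all genes in the 3 comparisons, against 6567, 1775 and 7201. The cause was not tested. In that fit the 24-mo values of Lama5 (-0.28), Lama2 (-0.01), Hspg2 (-0.50) and Lamb2 (-0.02) and the HGPS values against 24-mo WT of Smoc1 (0.03) and Papln (-0.02) turned in sign. DESeq2 called 2 members higher at 24 mo (1 by edgeR). With the trend on transcript length removed, an alternative added after seeing the data, the median was -0.24 in HGPS against 2-mo WT and 0.03 against 24-mo WT. With no count filter Npnt was 0.01 in HGPS against 24-mo WT.

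The replicate number pairs no animals: same-numbered mice correlated at -0.162 to 0.172 over 18 pairs. With the replicate block 6364, 1570 and 6973 of all genes were called, and 4 member results changed: the 24-mo calls of Nid1 (-0.36) and Col4a1 (-0.29) were lost, Col4a6 passed in HGPS against 24-mo WT (-0.26), and Hspg2 at 24 mo was -0.10. Leaving out each mouse gave 2 to 3 members higher, 15 to 20 lower and 3 to 7 past the stricter cut-offs in HGPS (medians -0.40 to -0.31), 1 to 2, 8 to 14 and 3 to 5 at 24 mo (-0.36 to -0.19), and 6, 9 to 11 and 9 to 10 for HGPS against 24-mo WT (-0.14 to -0.02). In the order HGPS against 2-mo WT, 24-mo against 2-mo WT and HGPS against 24-mo WT, the log2 ratios ran over -0.10 to -0.05, -0.05 to 0.04 and -0.11 to -0.02 for Col4a1 to Col4a2, -0.04 to 0.11, -0.34 to -0.11 and 0.16 to 0.39 for Lama4 to Lama5, 1.42 to 1.70, -0.62 to -0.51 and 1.97 to 2.25 for Lamb1 to Lamb2, -0.51 to -0.31, 0.26 to 0.39 and -0.83 to -0.62 for Nid1 to Nid2, and 0.10 to 0.27, -0.36 to -0.18 and 0.37 to 0.53 for Col15a1 to Col18a1. Single members turned in sign in some of these fits, over ranges of -0.06 to 0.06 for Npnt, -0.15 to 0.14 for Col15a1, -0.14 to 0.04 for Col4a2 and -0.16 to 0.07 for Agrn in HGPS against 24-mo WT, -0.38 to 0.13 for Hspg2, -0.17 to 0.11 for Lama5, -0.04 to 0.12 for Lama2 and -0.09 to 0.02 for Col18a1 at 24 mo, and -0.01 to 0.33 for Frem1 and -0.01 to 0.16 for Smoc1 in HGPS. Members with few counts per mouse (Lamb3, Frem1, Papln) are the least precise.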
